A study of Mus musculus with 6 samples.

Results

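The enzymes that add or remove chemical marks on histones and DNA were followed as a group of 67 genes, of 14416 in the deposited count table. They were taken by symbol: every row named as a KDM lysine demethylase, HDAC deacetylase, KAT acetyltransferase, SETD or SETDB protein, SUV39H or SUV420H methyltransferase, EZH1 or EZH2, DNMT1 or DNMT3 DNA methyltransferase, TET1 to TET3, PRMT arginine methyltransferase, EHMT1 or EHMT2, or sirtuin. The cells were lung innate lymphoid cells (ILCs), lymphocytes without rearranged antigen receptors, sorted as Lin-Thy1.2+ from C57BL/6J mice. Of the 6 samples, 3 were wild type (WT) and 3 were labelled RBM3KO, for a knockout of Rbm3. Both groups had received Alternaria alternata, a fungal allergen, at 25 µg per challenge with 3 challenges in 7 days, so no unchallenged lung was compared. The RBM3 protein binds RNA and is induced by cold, and the series is about its restraint of ILCs and of inflammation in the lung. The sources used here do not state how the knockout allele was made, the sex and age of the mice or whether a sample pools animals.

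Histone tails carry acetyl and methyl groups that are set by writers and taken off by erasers. Acetyl groups, put on by lysine acetyltransferases and removed by HDACs and sirtuins, generally mark active chromatin. Methyl groups have meanings that depend on the residue: those on H3K9 and H3K27 go with silenced chromatin. DNA methylation is copied to the new strand after replication by DNMT1 with its partner UHRF1, is set anew by the DNMT3 enzymes, and is oxidised by the TET enzymes. In innate and adaptive lymphocytes these marks are known to hold lineage genes such as cytokine loci open or closed. Transcript levels say nothing of how active the enzymes were, and no chromatin mark was measured here.

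Depth differed between libraries, with 7498247 counts in RBM3KO replicate 3 as the fewest and 25068137 in WT replicate 3 as the most. Rbm3 itself stood at 269, 313 and 292 CPM (counts per 1000000 counts of a library, scaled by the TMM method) in the WT libraries and at 26.5, 22.4 and 31.6 CPM in the RBM3KO libraries, so each library matched its label. The sorted identity was checked on 14 markers of type 2 ILCs, all of which had counts, with Gata3 at 583 to 853 CPM and Thy1 at 87.8 to 116 CPM. These markers summed to 8258 to 9642 CPM of the total count in the WT libraries. In the RBM3KO libraries they summed to 10925 to 11295 CPM, without overlap. Of the 14, 13 had estimates above 0, and 10 did not overlap, beside 18.9% of all tested genes. By edgeR 0 of the 14 were called and 9 had an unadjusted p under 0.05, beside 12.3% of all tested genes. DESeq2 called 6 of the 14 and limma-voom 1, where over all 11382 tested genes they called 414 and 186. Transcripts used as markers of other cells were also present. Bulk counts cannot tell whether they came from other cells or from the ILCs themselves. Cd3e, a chain of the T cell receptor complex, lay between 15.7 and 32.8 CPM, and the 9 T cell markers in the table summed to 439 to 556 CPM of the total count in WT and 522 to 683 CPM in RBM3KO. The 7 B and plasma cell markers summed to 65.1 to 90.2 CPM in WT and 40.4 to 44.5 CPM in RBM3KO, with Igj at 0 in every RBM3KO library. The 14 myeloid markers summed to 123 to 261 CPM in WT and 64.3 to 135 CPM in RBM3KO, with Lyz1 and Marco at 0 in every WT library and Flt3 and Siglech at 0 in every RBM3KO library. Granulocyte and mast cell markers summed to 21.0 to 27.6 CPM in WT and 15.7 to 27.6 CPM in RBM3KO, and epithelial, stromal and endothelial markers to 63.4 to 152 CPM and 78.8 to 333 CPM, both with overlap. The part of these transcripts in the results that follow was not tested.

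Of the 67 enzymes, 65 had enough counts to be tested, and 1 of them, the H3K9 methyltransferase gene Suv39h1, passed the test. It fell in RBM3KO. The test was edgeR's quasi-likelihood test over 11382 genes, with p-values adjusted by the Benjamini-Hochberg method and a threshold of 0.05. That 1 gene in 65 is 1.54%, beside 1.00% of all tested genes lower, 0.246% higher and 1.25% in either direction, Rbm3 included. The share of the enzymes is thus near that of all genes. By edgeR 0 were called higher, and DESeq2 and limma-voom likewise called Suv39h1 lower and 0 enzymes higher. At an unadjusted p under 0.05 there were 5 enzymes (Suv39h1, Dnmt1, Hdac2 and Prmt7 on the lower side and Prmt2 on the higher), which is 7.69% beside 12.3% of all tested genes. In 11 enzymes the 3 WT libraries and the 3 RBM3KO libraries did not overlap, which is 16.9% beside 18.9% of all tested genes. Of these, 8 were lower in RBM3KO (12.3% beside 10.5%) and 3 were higher (4.62% beside 8.43%). The log2 fold change of RBM3KO over WT, called the estimate from here on, had a median of -0.04 over the 65, beside 0.01 over all tested genes, and 30 lay above 0 and 35 below.

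**Figure D1:**
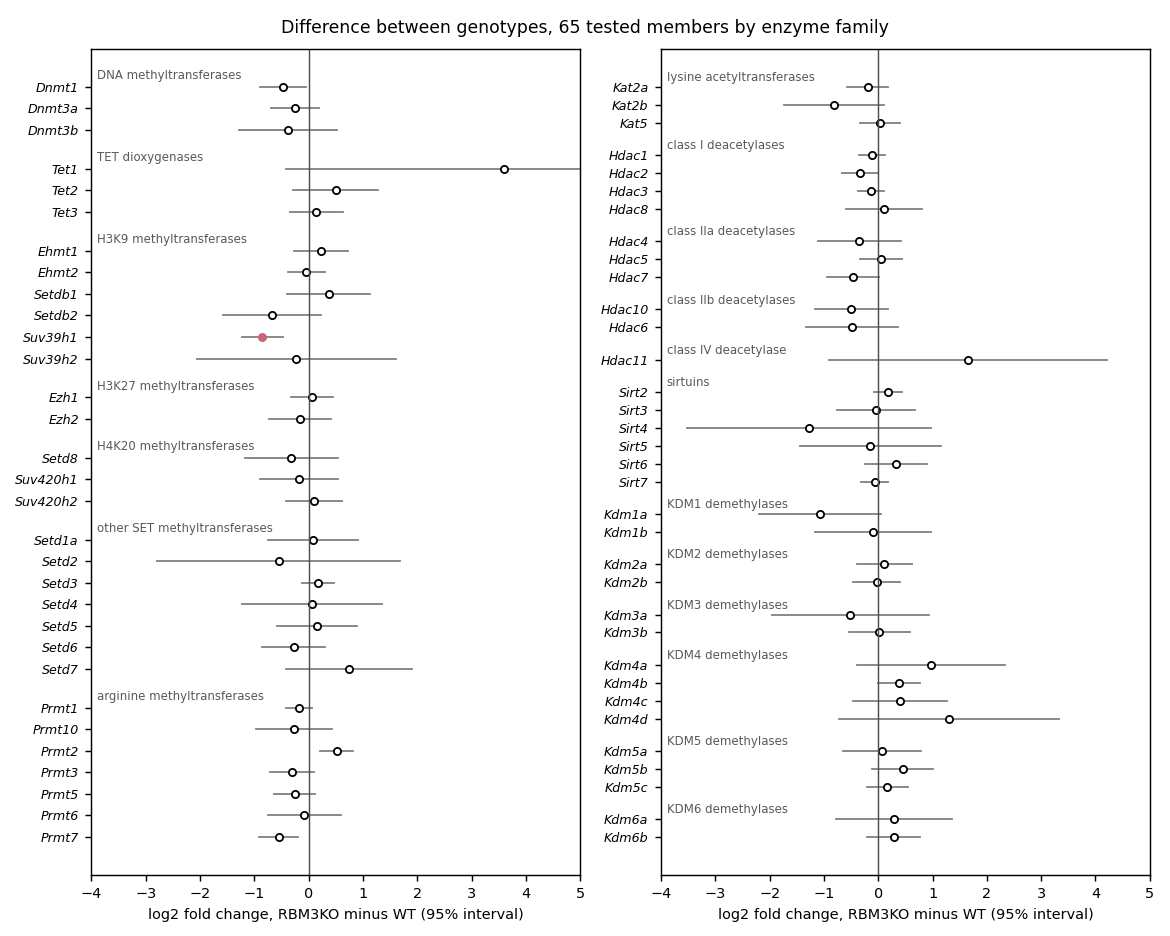
Log2 fold change, RBM3KO minus WT, of the 65 tested enzymes, with its 95% interval from the edgeR fit, grouped by family. The filled point is Suv39h1 (-0.85), the gene past the adjusted threshold, and the intervals are wide for genes of low count such as Tet1, whose interval runs beyond the right edge, Hdac11 and Sirt4.

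For most of the well expressed enzymes the data put a limit on the size of a change. In 39 of the 65 the 95% interval of the log2 fold change lay wholly between -1 and 1, which is 60.0% of them beside 48.3% of all tested genes. In 11 it lay between -0.5 and 0.5: Hdac1, Hdac3, Hdac5, Sirt2, Sirt7, Prmt1, Setd3, Kat5, Ezh1, Ehmt2 and Kdm2b. The intervals are not adjusted for the number of genes. Precision followed the level. The median standard error (SE) of the log2 fold change was 0.11 in the 8 enzymes at a mean of 100 CPM or more, 0.18 in the 23 between 30 and 100 CPM, 0.35 in the 23 between 10 and 30 CPM and 0.83 in the 11 below 10 CPM. In the other 26, Suv39h1 and all 11 of the lowest group among them, the interval reached past a 2-fold change.

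SUV39H1 places H3K9 methylation at pericentromeric heterochromatin and is known to keep lineage genes silent in T cells. Its gene had 96.4, 74.5 and 76.6 CPM in the WT libraries and 45.9, 47.9 and 42.9 CPM in the RBM3KO libraries. All 3 RBM3KO libraries lay below all 3 WT libraries, and they spread less than the WT libraries did. The mean fell from 82.5 ± 12.1 to 45.6 ± 2.52 CPM (SD, n = 3 each), a log2 fold change of -0.85 (SE 0.17, edgeR adjusted p = 0.0393), or 0.553 of the WT level with a 95% interval from 0.427 to 0.717. In bulk RNA such a difference can come from fewer cells with the transcript or from less transcript per cell, which cannot be told apart. The estimate lay between -0.73 and -0.92 under every alternative tried. Leaving out any 1 of the 6 libraries ended the call, however, at an edgeR adjusted p of 0.229 without WT replicate 1, 0.102 and 0.0827 without WT replicates 2 and 3, and 0.0948, 0.11 and 0.0988 without RBM3KO replicates 1, 2 and 3. A list of 26 cell cycle genes differed between the same libraries. They summed to 4769 to 5793 CPM of the total count in WT and 2940 to 3118 CPM in RBM3KO. Of the 26, 17 fell in the edgeR test, beside 1.00% of all tested genes, and all 26 estimates lay below 0. The list was chosen with earlier results of these data known, so these counts describe it and do not test it. The part of these 26 genes in the Suv39h1 difference was not tested.

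The close paralogue Suv39h2 was a minor transcript. Per kilobase of transcript, Suv39h1 stood 29.5 times above Suv39h2 (15.1 to 61.0 times in single libraries), and Suv39h2 had 6.20, 2.76 and 1.96 CPM in WT and 1.76, 3.16 and 4.44 CPM in RBM3KO. The groups of Suv39h2 overlapped, and its interval for the log2 fold change ran from -2.05 to 1.604, too wide to say whether it moved with Suv39h1 or against it. The other H3K9 methyltransferases did not pass. Ehmt2, which encodes G9a, averaged 76.4 ± 6.25 CPM in WT against 74.3 ± 8.26 CPM in RBM3KO, and Ehmt1, its partner GLP, averaged 43.5 ± 11.05 and 51.0 ± 6.94 CPM. Setdb1, which silences retroelements with the corepressor TRIM28, had an estimate of 0.37 (SE 0.35) and Setdb2 of -0.67 (SE 0.41). The 6 genes together summed to 263, 221 and 237 CPM in WT and 220, 193 and 214 CPM in RBM3KO, without overlap. With Suv39h1 taken out the sums overlapped, at 167, 147 and 161 CPM against 174, 145 and 171 CPM. Among 17 listed readers of heterochromatin and acetyl-lysine, 0 passed the edgeR test. Of the 17, 2 had an unadjusted p under 0.05, beside 12.3% of all tested genes. DESeq2 and limma-voom called 1 each, Cdyl and Trim28, where over all 11382 genes they called 414 and 186. Trim28 there stood at 254, 247 and 245 CPM in WT and 67.5, 144 and 176 CPM in RBM3KO, without overlap but with a wide spread in the knockout (estimate -0.95, SE 0.26, edgeR adjusted p = 0.138). The heterochromatin proteins that bind H3K9 methyl groups had estimates of -0.03 (Cbx1, SE 0.27), 0.37 (Cbx3, SE 0.55) and -0.17 (Cbx5, SE 0.28).

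The promoters of the SUV39H pair are printed because one gene of the pair fell and the other had few counts, and that of Dnmt1 because DNMT1 works at the replication fork, where MCM proteins of the cell cycle list also act. Each window holds the 250 bases before the start of transcription and the 50 bases from it onward, 5′ to 3′ on the gene's strand, as RefSeq gives it for GRCm38.p6. Capitals mark the motifs searched on both strands: an E2F-type site (TTTCCCGC, TTTGGCGC, TTTCGCGC or TTTGCCGC), the cell cycle homology region (TTTGAA, with TTCGAA as its other form), the CCAAT box and the GC box (GGGCGG). Matches that overlap or touch run together. RefSeq lists 2 start windows for Suv39h1, at chrX:8074711-8075010 and chrX:8074312-8074611, both on the minus strand. Suv39h2 has chr2:3474937-3475236 on the minus strand. Of the 3 windows of Dnmt1 the one at chr9:20952574-20952873, minus strand, is shown, chosen after its matches were seen.
Suv39h1 upstream start: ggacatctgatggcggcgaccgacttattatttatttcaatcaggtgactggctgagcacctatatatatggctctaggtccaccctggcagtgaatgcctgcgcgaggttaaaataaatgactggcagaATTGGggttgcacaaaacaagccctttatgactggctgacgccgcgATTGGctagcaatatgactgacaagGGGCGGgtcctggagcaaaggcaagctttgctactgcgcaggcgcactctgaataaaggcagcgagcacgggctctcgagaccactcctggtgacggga
Suv39h1 downstream start: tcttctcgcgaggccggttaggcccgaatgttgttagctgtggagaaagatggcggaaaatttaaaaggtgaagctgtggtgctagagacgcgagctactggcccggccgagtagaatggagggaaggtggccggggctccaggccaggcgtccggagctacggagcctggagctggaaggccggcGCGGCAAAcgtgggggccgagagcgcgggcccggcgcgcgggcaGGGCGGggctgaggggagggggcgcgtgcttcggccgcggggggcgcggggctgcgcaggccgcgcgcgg
Suv39h2: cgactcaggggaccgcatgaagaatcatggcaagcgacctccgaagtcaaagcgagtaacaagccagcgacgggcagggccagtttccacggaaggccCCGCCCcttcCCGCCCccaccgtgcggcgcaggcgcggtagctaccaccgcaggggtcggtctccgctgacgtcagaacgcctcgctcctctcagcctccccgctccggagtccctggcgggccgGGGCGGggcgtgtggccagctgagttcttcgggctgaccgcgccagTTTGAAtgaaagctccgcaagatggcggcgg
Dnmt1: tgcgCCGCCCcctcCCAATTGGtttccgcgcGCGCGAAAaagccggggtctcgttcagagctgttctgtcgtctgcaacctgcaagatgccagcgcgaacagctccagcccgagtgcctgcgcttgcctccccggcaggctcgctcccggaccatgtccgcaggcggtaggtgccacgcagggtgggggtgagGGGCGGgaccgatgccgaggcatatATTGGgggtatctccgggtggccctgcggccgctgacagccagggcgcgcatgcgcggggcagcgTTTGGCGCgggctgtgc

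The upstream Suv39h1 window held 2 CCAAT matches and 1 GC box, and the downstream one held an E2F-type match whose leftmost base lies at -64 from the start, and 1 GC box. Suv39h2 held 3 GC boxes and a TTTGAA at 20 bases into the transcript, with no E2F-type match. The Dnmt1 window shown held 2 E2F-type matches, at -219 and 34, and the other 2 Dnmt1 windows held 0. The windows of Prmt2 and Prmt7 were marked in the same way and are not printed. Neither held an E2F-type match or a cell cycle homology region. Windows were listed for 59 of the 67 enzymes, 83 windows in all. An E2F-type match was in 6 of these (7.23%), those of Suv39h1, Dnmt1, Ezh2, Kat2a, Suv420h2 and Sirt4, beside 2.26% of all 32851 windows. All windows here means those of 27025 genes, not limited to genes with counts in these cells, so the 2 sets are not alike. The enzymes' windows were also richer in G and C, with a median of 61.7% beside 52.7% and 22 CpG beside 7, and the E2F-type and GC box motifs themselves hold a CpG. CCAAT was in 42.2% of the enzymes' windows beside 37.4%, the GC box in 61.5% beside 35.7% and the cell cycle homology region in 15.7% beside 19.2%. These matches are descriptions of letters, not of bound sites. Of the 6 genes with an E2F-type match, Suv39h1 passed the test in RBM3KO and the other 5 did not.

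Suv39h1 lies on the X chromosome at 8061171 to 8074760 (mm10), 64215 bases from Rbm3, which is at 8138975 to 8145880. The genes around the knocked-out locus were therefore listed, a step added after the position had been seen. Within 500 kb of Rbm3 the table held 28 other genes, of which 23 were tested. Suv39h1 was the 1 called. As the list was drawn up because of Suv39h1, the share of 4.35% holds its call by choice and cannot be weighed against the 1.25% of all genes. Of the 23, 11 had an estimate below 0, with a median of 0.01. At an unadjusted p under 0.05 there were 5 of the 23, and 6 did not overlap between the groups, Suv39h1 counted in both. These are larger shares than the 12.3% and 18.9% of all tested genes, but they too hold the gene that prompted the list. Between Suv39h1 and Rbm3 lie Was, Gm6787 and Wdr13. Was, which encodes the Wiskott-Aldrich syndrome protein, averaged 113 CPM in WT against 160 CPM in RBM3KO, with an estimate of the opposite sign (0.51, SE 0.12, edgeR adjusted p = 0.0903). Wdr13 averaged 13.5 against 12.9 CPM, and Gm6787 had few counts. On the other side of Rbm3, Tbc1d25 averaged 22.0 against 30.4 CPM and Ebp 177 against 161 CPM, and neither passed. Farther away, the deubiquitinase gene Otud5 had 112, 124 and 125 CPM in WT and 43.6, 80.2 and 85.0 CPM in RBM3KO, without overlap (estimate -0.79, SE 0.22, edgeR adjusted p = 0.138). Tfe3, a transcription factor gene, averaged 59.5 CPM in WT against 80.8 CPM in RBM3KO and Gpkow 62.5 against 83.3 CPM, both higher without overlap and neither past the threshold. Hdac6, another of the enzymes, lies 191086 bases from Rbm3 and stood at 17.8, 21.0 and 12.5 CPM in WT and 13.7, 15.5 and 7.13 CPM in RBM3KO, with overlap. Whether the knockout allele itself bears on its neighbours was not tested.

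**Figure D2:**
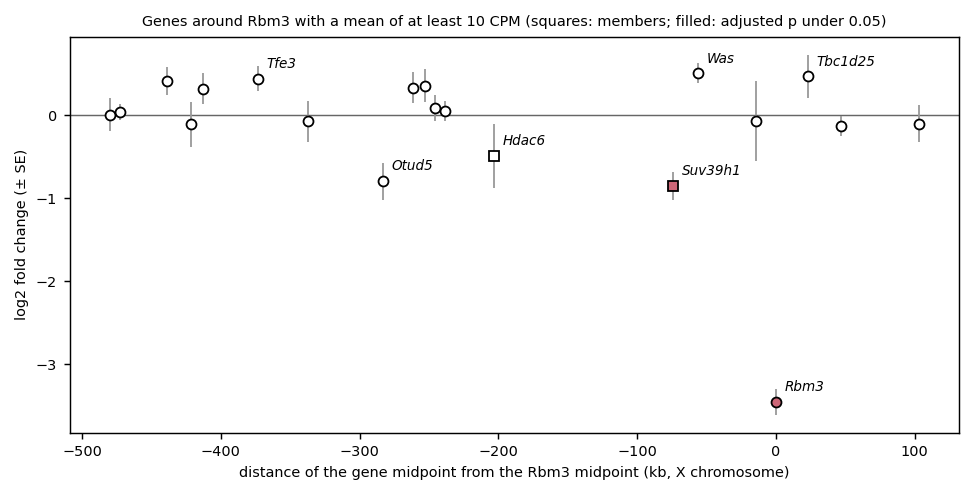
Log2 fold change (RBM3KO minus WT, ± SE) of the 20 tested genes within 500 kb of Rbm3 with a mean of at least 10 CPM, against the distance of the gene's midpoint from that of Rbm3. Squares are chromatin enzymes, filled symbols have an adjusted p under 0.05 (Rbm3 and Suv39h1), and the neighbours scatter on both sides of 0.

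Among the DNA methyltransferases, Dnmt1 had 170, 163 and 159 CPM in WT and 162, 99.1 and 92.1 CPM in RBM3KO. RBM3KO replicate 1 sat among the WT libraries and the other 2 knockout libraries lay well below them, so the groups overlapped and the gene did not pass (estimate -0.48, SE 0.19, edgeR adjusted p = 0.338). Without RBM3KO replicate 1 it was called lower (-0.78, edgeR adjusted p = 0.0277). Per kilobase Dnmt1 stood 4.37 times above Dnmt3a and 8.14 times above Dnmt3b. Dnmt3a, the de novo enzyme that most mature lymphocytes use, had 58.8, 55.4 and 75.5 CPM in WT and 43.3, 60.5 and 55.3 CPM in RBM3KO. Dnmt3b had 17.5, 16.2 and 13.3 CPM in WT and 9.06, 7.76 and 19.6 CPM in RBM3KO. Both overlapped between the groups. The summed level of the 3 did not overlap, at 235 to 247 CPM in WT and 167 to 214 CPM in RBM3KO.

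Of 13 tested genes among the listed partners, readers and repair factors of DNA methylation, 1 fell and 1 rose in the edgeR test, where 1.25% of all tested genes were called. The same 2 were called by limma-voom, and DESeq2 called 3, with Uhrf2 as the other. Over all 11382 genes limma-voom called 186 and DESeq2 414. Uhrf1, the protein that guides DNMT1 to half-methylated DNA, had 249, 240 and 217 CPM in WT and 153, 133 and 129 CPM in RBM3KO (estimate -0.76, SE 0.11, edgeR adjusted p = 0.0117). Uhrf1 thus separated the genotypes where Dnmt1 did not, RBM3KO replicate 1 included. Uhrf2, the paralogue of Uhrf1, had 97.0, 99.2 and 125 CPM in WT and 65.2, 61.3 and 82.0 CPM in RBM3KO, without overlap (estimate -0.63, SE 0.17, edgeR adjusted p = 0.124). Gadd45b, a stress-induced adaptor linked to DNA repair, rose from 1084 ± 126 to 1515 ± 60.4 CPM (estimate 0.48, SE 0.09, edgeR adjusted p = 0.0393).

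The TET genes all had estimates above 0 and none passed. Tet3 led per kilobase, with 29.0, 25.3 and 25.6 CPM in WT and 30.05, 28.8 and 29.3 CPM in RBM3KO. Tet2, a frequent tumour suppressor of blood cells, had 12.6, 15.1 and 8.65 CPM in WT and 13.04, 17.1 and 21.2 CPM in RBM3KO. Tet1 was close to absent, with 0, 12 and 0 counts in WT and 71, 9 and 27 counts in RBM3KO, and its estimate of 3.60 (SE 1.82) rests on these few reads. The 3 genes summed to 34.2 to 41.6 CPM in WT and 46.4 to 54.2 CPM in RBM3KO, without overlap.

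**Figure D3:**
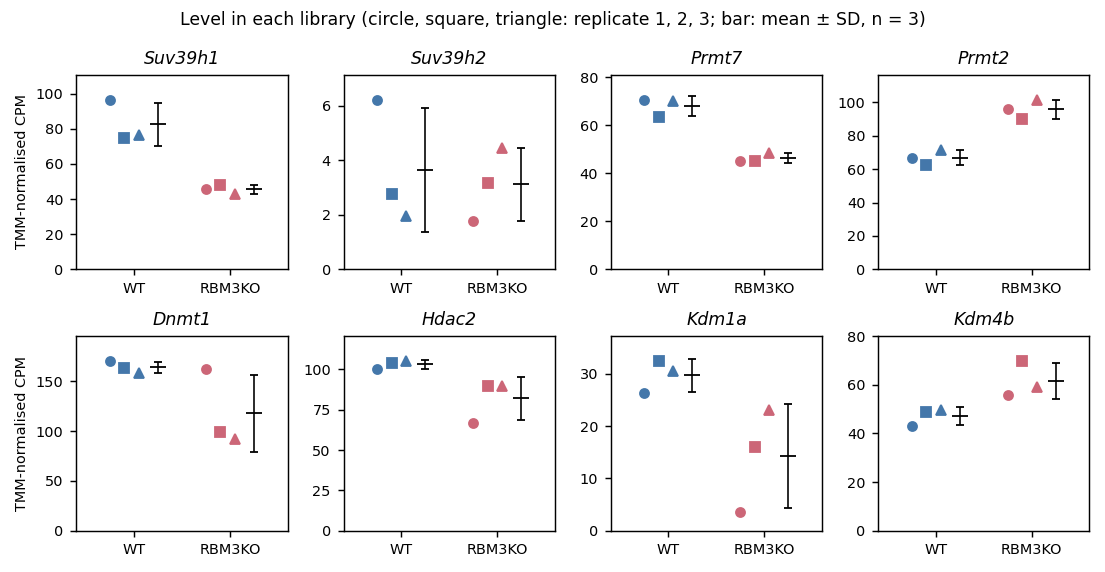
TMM-normalised CPM of 8 enzymes in each library (circle, square and triangle for replicates 1, 2 and 3), with the mean and SD of each genotype (n = 3). Suv39h1 (82.5 against 45.6 CPM) is the gene past the adjusted threshold, Prmt7 and Prmt2 are separated in opposite directions, and RBM3KO replicate 1 stands apart from its group in Dnmt1 and Kdm1a.

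EZH1 and EZH2 are the alternative catalytic subunits of Polycomb repressive complex 2, which methylates H3K27. EZH2 is the form of dividing cells and EZH1 that of resting cells. Ezh1 was the more abundant here, at 1.57 times Ezh2 per kilobase (1.24 to 1.85 times in single libraries). Ezh1 had 79.9, 92.7 and 85.9 CPM in WT and 68.4, 97.6 and 104 CPM in RBM3KO. Ezh2 had 42.7, 42.9 and 31.9 CPM in WT and 24.5, 37.4 and 44.0 CPM in RBM3KO. Both overlapped, and the 95% interval of the estimate was -0.32 to 0.44 for Ezh1 and -0.72 to 0.42 for Ezh2.

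None of the remaining SET-domain enzymes passed. Setd3, an actin methyltransferase despite its family, was by far the most abundant of them, with 111, 124 and 121 CPM in WT and 140, 146 and 115 CPM in RBM3KO. Setd5 and Setd6 had estimates of 0.16 and -0.28, and Setd1a, a writer of H3K4 methylation, had 0.09 (SE 0.38). Setd4 and Setd7, under 10 CPM on average, had 0.06 (SE 0.58) and 0.74 (SE 0.52). Setd2, the writer of trimethylated H3K36, was irregular, at 8.71, 7.58 and 0.352 CPM in WT and 3.06, 1.37 and 6.99 CPM in RBM3KO, so its counts of 118, 129 and 9 in the WT libraries did not follow depth. The H4K20 enzymes Setd8, Suv420h1 and Suv420h2 had estimates of -0.32, -0.18 and 0.10. Suv420h2 led them per kilobase, with 45.0 ± 10.2 CPM in WT against 48.2 ± 10.1 CPM in RBM3KO. Of the MLL, NSD and other histone methyltransferases outside the symbol rule, 0 of 18 passed the edgeR test, DESeq2 or limma-voom. An unadjusted p under 0.05 was found for 3, beside 12.3% of all tested genes. These were Nsd1, Whsc1 and Carm1, with estimates of 0.43, -0.74 and -1.08. The median of the 18 was 0.06, and Whsc1l1 and Smyd2, the highest in CPM, had estimates of 0.08 and -0.40. The MLL core complex had 0 of 8 past any of the 3 tools and 2 at an unadjusted p under 0.05, beside that same 12.3%. Ash2l stood at 125 ± 19.4 and 125 ± 22.4 CPM and Dpy30 at 113 ± 8.09 and 85.0 ± 12.5 CPM.

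The arginine methyltransferases held 2 genes separated in opposite directions. Prmt7, which makes monomethylarginine, had 70.6, 63.4 and 70.2 CPM in WT and 45.4, 45.3 and 48.7 CPM in RBM3KO. Prmt2, a weakly active member that also serves as a nuclear receptor coactivator, had 66.6, 62.6 and 71.4 CPM in WT and 95.7, 90.0 and 101 CPM in RBM3KO. Neither set of values overlapped, and the spread within each genotype was small. Neither passed over all genes: the estimate was -0.55 for Prmt7 (SE 0.16, edgeR adjusted p = 0.168) and 0.52 for Prmt2 (SE 0.14, edgeR adjusted p = 0.131). Across the alternatives tried, the estimate stayed between -0.60 and -0.53 for Prmt7 and between 0.47 and 0.56 for Prmt2, and neither was called under any of them, at adjusted p-values from 0.0925 to 0.471 and from 0.0538 to 0.397.

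Prmt1, the main source of asymmetric dimethylarginine, led the family per kilobase and ranked 2 among all 67 enzymes, with 271, 291 and 254 CPM in WT and 263, 214 and 245 CPM in RBM3KO. Prmt5, the main writer of symmetric dimethylarginine and needed by proliferating T cells, had 149, 158 and 135 CPM in WT and 161, 105 and 104 CPM in RBM3KO. As for Dnmt1, RBM3KO replicates 2 and 3 lay below every WT library and replicate 1 did not, being here the highest of the 6. Prmt3 had 52.9, 49.9 and 64.2 CPM in WT and 42.4, 46.5 and 46.7 CPM in RBM3KO, without overlap but with an estimate of -0.30 (SE 0.18, edgeR adjusted p = 0.578). Prmt6 and Prmt10 had -0.08 and -0.27. Of the 7 genes, 6 had estimates below 0, that of Prmt6 turning sign under 3 of the 14 alternatives, and 0 were called by edgeR, DESeq2 or limma-voom. Carm1, an arginine methyltransferase outside the symbol rule, averaged 11.5 ± 4.94 CPM in WT against 5.42 ± 1.58 CPM in RBM3KO. Its groups did not overlap and it did not pass (estimate -1.08, SE 0.48, edgeR adjusted p = 0.391).

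The 3 lysine acetyltransferases in the group did not pass. Kat5, which encodes TIP60, had 63.6, 54.8 and 62.1 CPM in WT and 54.2, 67.7 and 61.7 CPM in RBM3KO (estimate 0.03, 95% interval -0.35 to 0.40). Kat2a, or GCN5, had an estimate of -0.19 (SE 0.17). Kat2b, or PCAF, was at 14.6, 9.63 and 9.94 CPM in WT and 7.89, 5.73 and 5.78 CPM in RBM3KO, without overlap at low counts (-0.81, SE 0.42, edgeR adjusted p = 0.473). Of the acetyltransferases outside the symbol rule, CBP and p300 among them, 0 of 15 passed the edgeR test, with a median of -0.05. An unadjusted p under 0.05 was found for 4 of the 15, beside 12.3% of all tested genes. DESeq2 called 2, Ep300 and Ncoa3, and limma-voom 0, where over all 11382 genes they called 414 and 186. Ep300 averaged 15.8 ± 5.49 CPM in WT against 36.6 ± 9.11 CPM in RBM3KO, without overlap (estimate 1.21, SE 0.32, edgeR adjusted p = 0.123). The 2 highest in CPM were Myst2, at 94.3 ± 13.2 and 119 ± 13.4 CPM, and the coactivator Ncoa3, at 87.5 ± 6.85 and 124 ± 8.97 CPM (estimate 0.51, edgeR adjusted p = 0.108).

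Hdac1, the deacetylase core of the SIN3, NuRD and CoREST complexes, was the most abundant of the 67 enzymes per kilobase. It had 413, 363 and 341 CPM in WT and 339, 379 and 313 CPM in RBM3KO, and its 95% interval of -0.36 to 0.13 lay within 0.5 log2 units of 0. Its partner Hdac2 stood 3.81 times lower per kilobase, with 100.1, 104 and 105 CPM in WT and 66.9, 89.6 and 89.7 CPM in RBM3KO. Hdac2 did not overlap between the groups and did not pass (estimate -0.33, SE 0.15, edgeR adjusted p = 0.405). Hdac3, the catalytic subunit of the NCOR complexes, had 175, 159 and 179 CPM in WT and 149, 164 and 155 CPM in RBM3KO, and Hdac8 had an estimate of 0.11. The listed partners of these complexes had 0 of 26 past the edgeR test and a median of 0.02. Of the 26, 3 had an unadjusted p under 0.05, beside 12.3% of all tested genes. DESeq2 and limma-voom each called 1, the SIN3 subunit gene Suds3, where over all 11382 genes they called 414 and 186. Suds3 averaged 104 ± 13.2 CPM in WT against 54.8 ± 17.0 CPM in RBM3KO, without overlap (estimate -0.93, SE 0.23, edgeR adjusted p = 0.0907). The 2 highest in CPM had groups that overlapped, with Mta2 of NuRD at 307 ± 29.1 and 316 ± 31.2 CPM and Sin3b at 301 ± 25.4 and 300.2 ± 22.8 CPM.

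Among the class IIa deacetylases, which shuttle between nucleus and cytoplasm, Hdac5 led per kilobase with 52.6, 66.3 and 71.2 CPM in WT and 71.0, 67.0 and 58.6 CPM in RBM3KO. Hdac7, the form best known from T cells, had 49.3, 42.3 and 45.8 CPM in WT and 41.1, 27.7 and 30.5 CPM in RBM3KO, without overlap (estimate -0.47, SE 0.22, edgeR adjusted p = 0.421). Hdac4 had an estimate of -0.35 (SE 0.35). Hdac9 did not pass the filter, with 27 counts in WT replicate 2 and 0 in the other 5 libraries. Of class IIb, Hdac10 had 43.6, 21.9 and 51.1 CPM in WT and 24.6, 29.5 and 28.5 CPM in RBM3KO, so the WT libraries spread across the knockout values. Hdac11, the class IV enzyme known to restrain Il10 in myeloid cells, was at 23, 25 and 23 counts in WT and 165, 27 and 3 counts in RBM3KO, and its estimate of 1.66 (SE 1.16) comes from RBM3KO replicate 1 alone: without it the value was -0.40.

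Sirtuins are deacylases that consume NAD. Sirt7 and Sirt2 ranked 3 and 4 among the 67 enzymes per kilobase. Sirt7 had 207, 196 and 227 CPM in WT and 223, 194 and 185 CPM in RBM3KO (estimate -0.06, 95% interval -0.31 to 0.19), and Sirt2, mostly a cytoplasmic enzyme, 179, 166 and 196 CPM and 221, 181 and 213 CPM. Sirt3, the main deacetylase of mitochondria, had an estimate of -0.04, Sirt5 of -0.15 and Sirt6 of 0.32. Sirt4 had 3.47, 3.58 and 3.25 CPM in WT and 0.326, 1.67 and 2.29 CPM in RBM3KO, without overlap but on 5 to 83 counts a library (SE 1.02). Sirt1, the best studied member, did not pass the filter, with 25, 5 and 0 counts in WT and 0, 5 and 14 in RBM3KO.

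The lysine demethylases had 0 of 15 members past edgeR, DESeq2 or limma-voom. An unadjusted edgeR p under 0.05 was found for 0 of the 15, beside 12.3% of all tested genes. Kdm1a, which encodes the flavin enzyme LSD1 of the CoREST complex, had 26.3, 32.4 and 30.5 CPM in WT and 3.65, 16.1 and 23.1 CPM in RBM3KO. The groups did not overlap, but the knockout libraries spread widely (estimate -1.07, SE 0.51, edgeR adjusted p = 0.429). The estimate ran from -0.61 without RBM3KO replicate 1 to -1.59 without RBM3KO replicate 3 and -1.62 with limma-voom. Kdm1b, its relative, had an estimate of -0.10 (SE 0.49). Of the demethylases with a JmjC domain, which need iron and oxoglutarate, the KDM2 and KDM3 pairs had estimates of 0.11 (Kdm2a), -0.03 (Kdm2b), -0.51 (Kdm3a, SE 0.66) and 0.02 (Kdm3b). Kdm3a, an H3K9 demethylase, had 10 counts in RBM3KO replicate 3 and 188 to 492 in the other libraries.

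All 4 KDM4 genes, which encode H3K9 demethylases, had estimates above 0. Kdm4b, which carries most of the reads, had 43.1, 48.7 and 49.8 CPM in WT and 55.7, 69.7 and 59.3 CPM in RBM3KO, without overlap (estimate 0.38, SE 0.18, edgeR adjusted p = 0.415). Kdm4a had 0.96 (SE 0.62), Kdm4c 0.40 (SE 0.39) and Kdm4d 1.30 (SE 0.92). RBM3KO replicate 1 was the highest library for Kdm4c and Kdm4d and the lowest for Kdm4a. The 4 summed to 64.5 to 69.7 CPM in WT and 83.5 to 100.8 CPM in RBM3KO, without overlap. The estimate of Kdm4c turned to -0.15 without RBM3KO replicate 1. The KDM5 and KDM6 genes, erasers of H3K4 and H3K27 methylation, also had estimates above 0, but those of Kdm5a and Kdm6a turned sign under 3 and 2 of the 14 alternatives, with ranges of -0.19 to 0.34 and -0.14 to 0.73. Kdm5b had 20.3, 27.2 and 29.1 CPM in WT and 31.0, 30.7 and 43.4 CPM in RBM3KO (0.45, SE 0.25), again without overlap, and Kdm5a had 0.07. Kdm6b, or JMJD3, an inducible gene in activated lymphocytes, had 51.9, 33.2 and 57.8 CPM in WT and 62.1, 55.9 and 56.3 CPM in RBM3KO.

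Kdm5c and Kdm6a are X-linked and are known to escape X inactivation in mice, so they can follow sex. Kdm5c had 74.1, 86.5 and 72.1 CPM in WT and 84.1, 104 and 72.2 CPM in RBM3KO. Kdm6a had 14.8, 17.0 and 17.0 CPM in WT and 5.93, 26.3 and 27.7 CPM in RBM3KO, where replicate 1 lay below and the other 2 above every WT library. Xist, which is made from the inactive X chromosome, was present in every library, at 33.8, 27.4 and 47.1 CPM in WT and 69.3, 40.3 and 63.1 CPM in RBM3KO (estimate 0.67, SE 0.27, edgeR adjusted p = 0.329). The Y-linked genes Ddx3y, Eif2s3y, Uty and Kdm5d had no row in the count table. The part of Xist or of sex in these values was not tested. The JmjC proteins outside the symbol rule had 0 of 11 past the edgeR test, DESeq2 or limma-voom. An unadjusted p under 0.05 was found for 0 of the 11, beside 12.3% of all tested genes.

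Summed by family, 14 of the 19 families overlapped between the genotypes. The H3K9 methyltransferases, the DNA methyltransferases and the KDM1 pair (41.8 to 52.3 against 24.9 to 34.3 CPM) were lower in RBM3KO without overlap, and the KDM4 and TET genes were higher without overlap. These sums carry no test, and 18.9% of single genes were separated in the same way. The 31 writers together made up 1703, 1668 and 1695 CPM in WT and 1601, 1471 and 1537 CPM in RBM3KO. The 36 erasers made up 1821, 1734 and 1839 CPM in WT and 1802, 1813 and 1705 CPM in RBM3KO. The writers did not overlap and the erasers did. These writers are those of the symbol rule, Setd3 among them, and leave out acetyltransferases and methyltransferases listed under other symbols. Of the acetyltransferases left out, Ep300, Myst1, Myst2 and Myst3 had estimates of 1.21, 0.08, 0.33 and 0.44, and Crebbp and Myst4 of -0.07 and -0.70. Whether the separation holds with such genes in the sum was not tested. Among writers 11 of 31 estimates lay above 0, and among the 34 tested erasers 19 did, with medians of -0.18 and 0.06. The difference between writers and erasers was not tested.

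**Figure D4:**
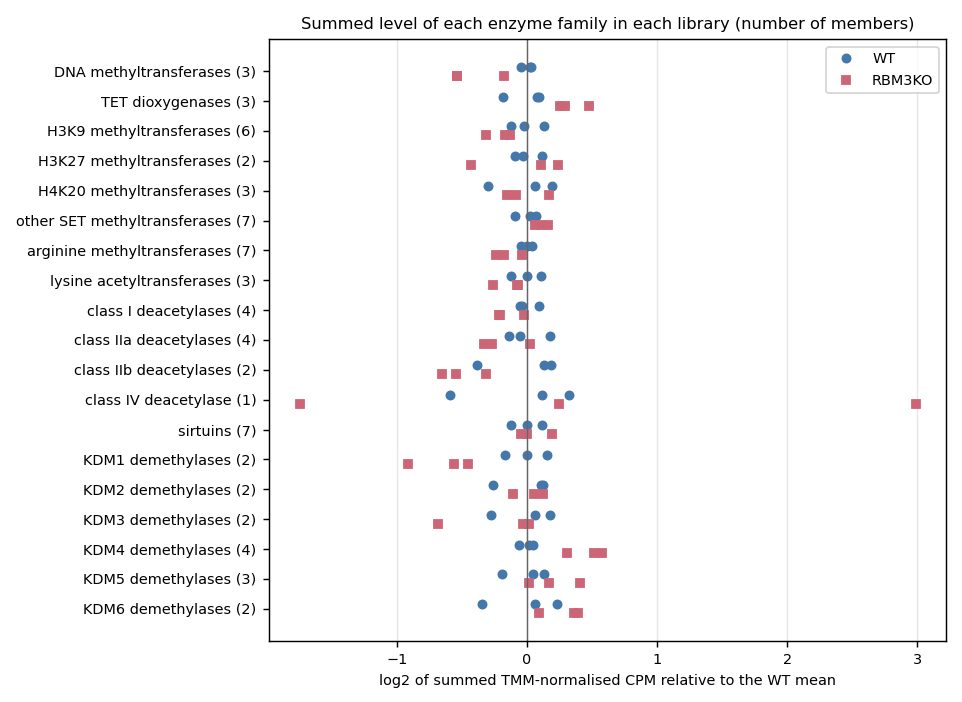
Log2 of the summed TMM-normalised CPM of each enzyme family in each library, relative to the mean of the 3 WT libraries (circles WT, squares RBM3KO; the number of members in brackets). The DNA methyltransferases, H3K9 methyltransferases and KDM1 demethylases lie lower and the KDM4 demethylases and TET dioxygenases higher in all 3 RBM3KO libraries, and the remaining 14 families overlap.

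The libraries did not contribute evenly to the extremes. RBM3KO replicate 1 was the highest library for 16 of the 65 tested enzymes and the lowest for 18, more than any other library (7 to 14 and 7 to 12). The median size of an enzyme's deviation from its genotype mean, on the log2(CPM + 0.5) scale, was 0.26 in RBM3KO replicate 1, 0.19 and 0.23 in RBM3KO replicates 2 and 3, and 0.13, 0.12 and 0.20 in the WT libraries. Kdm1a, Hdac11 and Kdm4d were among those that stood apart there at low counts, and Dnmt1 and Prmt5 among those that did so above 100 CPM. Which property of the library goes with this was not tested. Ranked by CPM per kilobase over all 6 libraries, the enzymes ran from Hdac1 (176), Prmt1 (170), Sirt7 (119), Sirt2 (105) and Hdac3 (80.4) down to Setd2 (0.560), Sirt1 (0.163), Tet1 (0.110) and Hdac9 (0.0825). The abundant end was thus held by deacetylases, deacylases and PRMT1.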

How the data were processed

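RNA of Lin-Thy1.2+ lung ILCs was measured by Smart-seq2 with Nextera XT libraries, per the labels' protocols. The authors deposited unnormalised counts of reads in a single table, whose rows are gene symbols and whose 6 columns are the samples, unpooled. Among the tools in the submitters' processing notes are featureCounts 1.6.5, STAR 2.6.1c and Bowtie 1.0.0, with the build mm10 and no role or order, the annotation and strand setting not given in the sources used here. In its standard form this protocol does not mark strand or use molecular identifiers, so overlapping genes can share reads and PCR copies count. The deepest library held 25068137 counts and the shallowest 7498247, and a count of 0 allows 3 counts, 0.12 to 0.4 CPM, for counting error only.

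From the counts were computed edgeR's filterByExpr filter by genotype (11382 genes, 99.92% of the counts), TMM scaling and the robust quasi-likelihood test without covariates (edgeR 4.0.16, R 4.3.3, Benjamini-Hochberg over all 11382 genes, threshold 0.05). The SE is the log2 fold change divided by the root of F, and the 95% interval uses the moderated degrees of freedom. The code was tested on simulated data. Levels are TMM-scaled CPM over 3 libraries a group; sums of markers and cell cycle genes are CPM of the total count. Whether samples are separate animals is not in the labels, so p-values reflect only the spread among these samples and that spread may be technical. No exact test of 3 against 3 can go below 0.1. Members and lists were chosen with earlier results of these data known. Genes named are members past the threshold or at an unadjusted p under 0.05, the most abundant of each family per kilobase, fixed paralogue sets and, for partner lists, up to 4 past the threshold or the 2 most abundant. Other members are named to account for the whole group. Members past neither threshold whose groups do not overlap, and partners or neighbours outside these rules, were picked out after their values were seen. Lengths and positions came from GENCODE M21 (GRCm38, as mm10), using for each gene its basic transcript of longest coding sequence; all 67 symbols matched, 4 of them by a synonym. Promoters came from RefSeq (GRCm38.p6). Alternatives were DESeq2 1.42.0, RLE scaling, no filter, 10 CPM in 3 libraries, limma-voom (limma 3.58.1), a non-robust fit, the replicate block, equal depth and each library left out. A result on 1 partner list and 1 on a marker gene are not reported here.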

Additional observations from a re-analysis of the deposited data

How the results depend on the processing

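Of the 14 alternatives, 7 kept 1 enzyme called lower, Suv39h1 in each: DESeq2, RLE scaling, no filter, 10 CPM in 3 libraries, limma-voom, the non-robust fit and equal depth (adjusted p from 0.00148 to 0.0481). With the replicate block 0 were called lower (Suv39h1 -0.847, adjusted p 0.0554). The labels do not say whether samples with the same replicate number share a batch, and these correlations cannot settle it. Same-numbered deviations correlated at 0.0555, 0.0574 and 0.00531. RBM3KO replicates 1 and 2 correlated best with the WT library of the same number, and RBM3KO replicate 3 did not. The block moved the calls over all genes from 142 to 149. Leaving out each library gave 0 to 1 called lower, the 1 being Dnmt1 without RBM3KO replicate 1, and calls over all genes of 12 to 99. With 2 samples in a group the test has less to work with. The alternatives called 0 enzymes higher. The enzymes' median log2 fold change ran from -0.096 without WT replicate 2 to -0.025 without WT replicate 3, and was -0.068 without RBM3KO replicate 1. Over all genes DESeq2 called 414, 10 CPM in 3 libraries 212 and limma-voom 186. Suv39h1 kept its sign in all 14. The median SE was largest, at 0.83, in the 11 enzymes under 10 CPM. The cause of this and of the lost calls was not tested.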
